A study of Homo sapiens with 3 samples.

Results

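At 8q24.21, 46 adjacent captured DNA fragments around the long non-coding RNA gene CCAT1 were followed across 3 human cell lines, out of 192 captured fragments at the locus and 1077 in the whole series. They are the HindIII fragments of chromosome 8 whose first base lies from 128189001 to 128330000 in the deposited table of captured positions (GRCh37), a window placed 430 to 560 kb before MYC. Start position alone decided which fragments belong. The window itself was chosen by a rule that names the pairs of these fragments per side, scaled by trans counts, with earlier results of those counts known, so the counts of its fragments against the rest of the capture are a description, and the tests between lines are not independent evidence about the window. The fragments run without a gap over 144 kb (chr8:128189518-128333496). The captured region itself extends from 127886760 to 128470692, with 108 captured fragments before them and 38 after them.

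SUM44 and BT483, both breast cancer lines, were set against GM06990, a lymphoblastoid line made from B lymphocytes. SUM44 came from a pleural effusion and was grown in medium free of phenol red with 10% serum and 1 nM estradiol. BT483 came from a primary invasive ductal carcinoma and was grown with 20% serum and 0.01 mg/ml insulin. GM06990 was grown with 15% serum and neither addition. Nuclei of SUM44 and GM06990 were released with a dounce homogeniser and those of BT483 with trypsin, and all 3 lines were fixed in formaldehyde at 2% for 5 min. Lysis and medium therefore differ with the line, and their parts cannot be told apart from it. Each line has 2 replicates. Nothing says that these were separate cultures, so the p-values reflect the spread of these libraries alone, and that spread may be technical. The assay counts DNA contacts and no RNA, so no line could be checked against marker genes.

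Chromosome capture with hybrid selection works by fixing nuclei, cutting the DNA with a restriction enzyme, ligating ends that lie close together and pulling down the ligated pairs that hold a chosen fragment. A count therefore measures how often a captured fragment lay near a target fragment, averaged over many cells, and a contact present in more cells cannot be told apart from one more frequent in each cell. MYC, the transcription factor gene that drives cell growth, lies in a stretch of 8q24 poor in other coding genes, and its distal enhancers differ between tissues. CCAT1 is transcribed from such an enhancer region in colon cancer and is known there for contacts with MYC. In the RefSeq gene order, PCAT1 and CASC19 come before CCAT1, then follow CASC21, CASC8, the POU5F1 retrogene POU5F1B, CASC11, MYC, and PVT1, a non-coding gene whose promoter competes with MYC for enhancers in breast cells. In what follows the telomeric side means targets beyond the capture towards MYC and PVT1, and the centromeric side means targets before the capture.

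The 46 fragments were 93 to 18237 bp long, with a median of 1848 bp. Each had 3033 target fragments outside the capture and within 5 Mb of it (near cis), of which 1528 were telomeric and 1505 centromeric. Over the 46 fragments there were 103374 and 93629 near cis contacts in the replicates of SUM44, 22257 and 106751 in BT483, and 41061 and 44693 in GM06990. Their contacts with other chromosomes (trans contacts), which stand for the capture efficiency and copy number of a fragment, numbered 112252 and 113421 in SUM44, 106721 and 360212 in BT483, and 74394 and 141940 in GM06990. Per 1000 trans contacts this gave 921 and 826 near cis contacts in SUM44, 209 and 296 in BT483, and 552 and 315 in GM06990. Over all 1077 captured fragments the same ratio was 811 and 716 in SUM44, 213 and 282 in BT483, and 373 and 163 in GM06990. The replicates of GM06990 stood furthest apart on this scale, and the first BT483 replicate had the fewest near cis contacts.

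On the telomeric side the 46 fragments averaged 586 ± 46.1 contacts per 1000 trans contacts in SUM44, 171 ± 35.0 in BT483 and 343 ± 137 in GM06990 (SD, n = 2 each). On the centromeric side they averaged 287 ± 21.4 in SUM44, 81.1 ± 27.1 in BT483 and 90.6 ± 30.3 in GM06990 (SD, n = 2 each). Contacts towards MYC and PVT1 outnumbered those in the other direction in each of the 6 replicates. These counts were not corrected for distance. The telomeric targets began 137 kb after the last fragment, the centromeric ones 303 kb before the first, so the excess alone shows no preference for MYC or PVT1. Telomeric contacts made up 67.2% and 67.0% of the near cis contacts in the replicates of SUM44, 70.3% and 66.2% in BT483, and 79.7% and 78.0% in GM06990. The exact Clopper-Pearson 95% interval, which covers counting error only, was widest in the first BT483 replicate, at 69.7% to 70.9%. GM06990 had the highest shares, and neither of its replicates overlapped a replicate of SUM44 or BT483.

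The fragments differed among themselves by a few fold in each line. On the telomeric side the lowest, median and highest values per 1000 trans contacts, as means of the replicates, were 366, 635 and 1112 in SUM44, 113, 171 and 262 in BT483, and 163, 302 and 868 in GM06990. The highest was thus 3.04 times the lowest in SUM44, 2.32 times in BT483 and 5.32 times in GM06990. Longer fragments had more contacts: Spearman's rho between length and telomeric contacts per trans contact across the 46 fragments reached 0.76 in SUM44, 0.67 in BT483 and 0.55 in GM06990. Such correlations describe fragments that share libraries and neighbours. The order of the fragments was repeated between replicates in SUM44 and GM06990 (rho of 0.96 and 0.92 on the telomeric side) and less closely in BT483 (0.74). Between lines the telomeric order was most alike in SUM44 and BT483 (0.81), against 0.55 between SUM44 and GM06990 and 0.69 between BT483 and GM06990.

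The highest telomeric level, averaged on the log2 scale over the lines, was that of chr8:128192178-128201573, near the start of the window. It had 1055 and 1074 contacts per 1000 trans contacts in SUM44, 212 and 311 in BT483, and 1110 and 626 in GM06990. The next, chr8:128319326-128325587, lies at the other end of the window and had 982 and 919 in SUM44, 188 and 261 in BT483, and 978 and 580 in GM06990. For both fragments the values of SUM44 and GM06990 overlapped, while BT483 was lowest. The last fragment of the window, chr8:128325588-128333496, came next, with 1100 and 1125 in SUM44, 170 and 278 in BT483, and 786 and 375 in GM06990, and here SUM44 lay above both other lines. The same 3 fragments were also the highest on the centromeric side.

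Averaged on the log2 scale over the lines, the lowest telomeric levels came from the middle of the window, but the lines differed in this. The fragment chr8:128283805-128284638 had the lowest average on both sides, with 420 and 353 telomeric contacts per 1000 trans contacts in SUM44, 125 and 150 in BT483, and 235 and 119 in GM06990. Its centromeric contacts numbered 183 and 169 in SUM44, 52.2 and 73.6 in BT483, and 69.9 and 34.6 in GM06990. Taken alone, SUM44 was lowest at the fragment from 128313238, with 411 and 322 telomeric contacts per 1000 trans contacts, and BT483 at that from 128311388, with 87.0 and 139, both at the far end of the window. The other low averages on the telomeric side were those starting at 128276016 and 128282876, and on the centromeric side those starting at 128309370 and 128310346. In these 5 fragments, on the sides named, the replicates of BT483 overlapped those of GM06990, and SUM44 stood above both.

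Set against the distance background of each replicate, which is the count expected from distance and trans contacts over all captured fragments of the locus, the telomeric profile along the window differed in shape between the lines. In GM06990 it was high at both ends and lower in the middle. There, 10 of the 46 fragments reached at least 2 times the background in both replicates, against 1 in SUM44 and 1 in BT483. This count covers the window only and does not set it apart from the rest of the locus. The captured fragment just outside its end also passed in GM06990, at 2.06 and 2.07. At the start of the window chr8:128189518-128192177 stood at 1.58 and 1.65 times the background in SUM44, 1.8 and 1.52 in BT483, and 3.04 and 4.21 in GM06990. The fragment from 128192178 stood at 2.08 and 2.27 in SUM44, 2.08 and 2.08 in BT483, and 4.02 and 5.24 in GM06990. It is the fragment that reached 2 times the background in every line.

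At the far end the telomeric ratio changed between neighbouring fragments in GM06990. The fragment chr8:128311388-128312286 stood at 0.718 and 0.704 times the background in SUM44, 0.767 and 0.781 in BT483, and 0.945 and 1.37 in GM06990. Its telomeric neighbour chr8:128312287-128313237 stood at 0.815 and 0.814 in SUM44, 0.981 and 0.855 in BT483, and 1.86 and 2.99 in GM06990. The next, chr8:128313238-128313880, stood at 0.860 and 0.799 in SUM44, 1.00 and 0.971 in BT483, and 2.87 and 3.51 in GM06990. Per trans contact, the step from the fragment at 128311388 to that at 128312287 was 0.933 and 0.934 fold in SUM44, 1.29 and 0.982 fold in BT483, and 1.74 and 1.87 fold in GM06990. The step was thus larger in both replicates of GM06990 than in any replicate of the other lines. It is not the largest along the window. From the fragment at 128207031 to that at 128207869 the step was 2.30 and 2.49 fold in SUM44, 1.76 and 1.5 fold in BT483, and 2.61 and 2.15 fold in GM06990. There SUM44 and GM06990 overlapped, and the fragments are 838 and 18237 bp long. Those at the step from 128311388 are 899 and 951 bp long.

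The high stretch went on to the end of the window in GM06990. The fragment chr8:128314311-128319325 stood at 1.79 and 1.88 times the background in SUM44, 1.43 and 1.48 in BT483, and 3.99 and 5.09 in GM06990. The fragment from 128319326 stood at 1.45 and 1.39 in SUM44, 1.63 and 1.44 in BT483, and 2.80 and 3.70 in GM06990. In the middle of the window the lines lay close together: the fragment from 128277154 stood at 1.78 and 1.95 in SUM44, 1.45 and 1.56 in BT483, and 1.85 and 1.85 in GM06990. These fragments were singled out after their values were seen, and no test was made between fragments.

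The telomeric ratio stepped at the start of the window in every replicate and changed less at its end. At the start the fragment outside is 532 bp long and that inside 2660 bp. At the end the fragment inside is 7909 bp long and that outside 5673 bp. The background had no term for length, and its part in these steps was not tested. Just outside its start, chr8:128188986-128189517 stood on the telomeric side at 0.941 and 0.929 times the background in SUM44, 1.20 and 1.12 in BT483, and 1.64 and 1.91 in GM06990, below the first fragment inside in every replicate. Just outside its end, chr8:128333497-128339169 stood at 1.64 and 1.86 in SUM44, 1.15 and 1.53 in BT483, and 2.06 and 2.07 in GM06990. The last fragment inside, from 128325588, stood at 1.55 and 1.57 in SUM44, 1.45 and 1.49 in BT483, and 2.29 and 2.52 in GM06990. Over all fragments of a group, the telomeric side stood at 1.24 ± 0.00635 times the background in SUM44, 1.31 ± 0.0489 in BT483 and 1.85 ± 0.253 in GM06990 for the 46 fragments. For the 108 before them it stood at 1.34 ± 0.00928 in SUM44, 1.38 ± 0.0555 in BT483 and 1.45 ± 0.165 in GM06990, and for the 38 after them at 1.30 ± 0.00825, 1.26 ± 0.109 and 1.04 ± 0.0261 in the same lines (SD, n = 2 each).

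Whether a fragment divided its contacts differently between the sides in the breast lines was tested fragment by fragment. Both sides of a fragment share its capture and its library, so a factor common to both sides cancels. A difference in copy number between the telomeric and the centromeric targets would not cancel, and its part was not tested. The sides also lie at unlike distances, with targets from 137 kb after the last fragment and from 303 kb before the first. The test had no term for distance, so a difference between lines in the fall of contacts with distance would not cancel either. Its part was not tested. With edgeR's quasi-likelihood test and Benjamini-Hochberg adjustment over 1012 captured fragments, the telomeric share fell in SUM44 relative to GM06990 at 44 of the 46 fragments and rose at 0. Over all captured fragments tested, 10.4% fell and 7.21% rose in that comparison. In BT483 relative to GM06990 it fell at 43 of the 46 and rose at 0, where 12.5% of all fragments fell and 0.791% rose. The median log2 change of the balance was -0.82 in SUM44 and -0.79 in BT483 over the 46 fragments, against 0.05 and -0.15 over all fragments tested. These comparisons share the GM06990 replicates. The neighbours at the locus differed in the same direction. The telomeric share of the 108 fragments before averaged 63.7% ± 0.0770 in SUM44, 65.1% ± 1.70 in BT483 and 69.5% ± 1.22 in GM06990. That of the 38 after averaged 71.4% ± 0.0960, 71.0% ± 4.44 and 78.1% ± 1.59 in the same lines (SD, n = 2 each).

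Between the breast lines, 0 of the 46 fragments differed in balance in SUM44 relative to BT483 by edgeR, where 10.2% of all fragments did. None had an unadjusted p under 0.05, and DESeq2 also called 0. The log2 differences ran from -0.32 to 0.31 with a median of -0.01. A count of 0 does not show that the lines divide their contacts alike. The calls against GM06990 lean on single libraries: without the first GM06990 replicate they numbered 13 in SUM44 and 16 in BT483. Without the second GM06990 replicate, or the second BT483 replicate, the BT483 calls numbered 28 and 26, and without the second BT483 replicate 4 fragments fell in SUM44 relative to BT483.

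The balance fell most at the far end of the window. The fragment from 128313238 had 69.9% and 67.5% of its contacts on the telomeric side in SUM44, 69.0% and 65.3% in BT483, and 84.6% and 84.8% in GM06990. Its log2 change of balance relative to GM06990 was -1.33 ± 0.14 in SUM44 (SE, edgeR adjusted p = 7.42e-06) and -1.48 ± 0.15 in BT483 (SE, edgeR adjusted p = 6.78e-06). Its neighbour chr8:128313881-128314310 had 66.0% and 65.3% in SUM44, 70.4% and 66.6% in BT483, and 83.4% and 86.0% in GM06990. There the change was -1.55 ± 0.16 in SUM44 and -1.43 ± 0.17 in BT483 (SE). The fragment from 128319326 had 69.5% and 65.1% in SUM44, 70.7% and 62.6% in BT483, and 83.0% and 82.5% in GM06990, with changes of -1.21 ± 0.17 in SUM44 and -1.35 ± 0.17 in BT483 (SE). In all 3 the GM06990 replicates lay above every breast replicate.

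The smallest changes in BT483 were at chr8:128252151-128256930 and chr8:128202615-128206854, both without a call in that line and picked after their values were seen. The fragment from 128252151 had 67.0% and 64.8% in SUM44, 66.7% and 67.9% in BT483, and 72.1% and 74.8% in GM06990, with an adjusted p of 0.125 in SUM44 and 0.288 in BT483 by edgeR. Its centromeric contacts were few, with 134 and 121 in SUM44, 33 and 99 in BT483, and 39 and 40 in GM06990. Across the window the telomeric share, as the mean of the replicates, ran from 65.6% to 68.9% in SUM44, from 62.8% to 73.1% in BT483 and from 73.5% to 84.7% in GM06990. The lowest fragment of GM06990 therefore lay above the highest of SUM44 and of BT483.

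To see where the contacts lay, they were summed over the 46 fragments in target windows of 50 kb and tested between lines with edgeR relative to each replicate's distance background. In SUM44 relative to GM06990, 59 of 202 windows were higher and 72 lower, or 29.2% and 35.6%, where 19.7% and 22.5% of the windows of all captured regions were. In BT483 relative to GM06990, 54 were higher and 47 lower, or 26.7% and 23.3%, where 16.6% and 14% were. In SUM44 relative to BT483, 3 were higher and 11 lower, or 1.49% and 5.45%, where 3.42% and 5.59% were. Scaling to trans contacts keeps the library-wide level, with medians over all windows of 1.48 in SUM44 and -0.05 in BT483 relative to GM06990 and of 1.49 between the breast lines. It gave 119 higher and 0 lower in SUM44, 0 and 0 in BT483, and 171 and 0 between the breast lines. Scaling to the near cis total of each group gave 90 higher and 36 lower in SUM44, 103 and 21 in BT483, and 15 and 18 between the breast lines. Without the second GM06990 replicate the BT483 calls numbered 63 in all, against 101 with it.

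The windows that passed the test in the same direction in both breast lines formed 5 runs of at least 5 neighbours. A run of 17 windows across MYC and beyond (chr8:128550001-129400000) was lower in the breast lines. It held 20.6% and 20.9% of the near cis contacts of the 46 fragments in SUM44, 24.6% and 23.5% in BT483, and 48.4% and 48.8% in GM06990. Nearly as many contacts of the GM06990 fragments fell there as in all other targets together. The median log2 change over its windows was -1.69 in SUM44 and -1.20 in BT483 relative to GM06990, and in SUM44 relative to BT483 6 of its windows were lower. The log2 changes of this run, like all below, are relative to the distance background. Because these runs were delimited on the same values, their shares and medians are a description.

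As a share of near cis contacts, the run towards MYC was low in the breast lines from every one of the 46 fragments. Per 1000 trans contacts of the 46 fragments together, the run had 190 and 173 contacts in SUM44, 51.4 and 69.8 in BT483, and 267 and 154 in GM06990. On that scale SUM44 and GM06990 overlapped. Its share of a fragment's near cis contacts, as the mean of the replicates, had a lowest, median and highest value of 18.5%, 20.8% and 23.9% in SUM44, 17.3%, 24% and 27.8% in BT483, and 39.6%, 47.2% and 58.9% in GM06990. All 4 breast replicates lay below both GM06990 replicates in 46 of the 46 fragments, and in 89.4% of all captured fragments of the locus with contacts. The share was highest in GM06990 from the fragment at 128313238. From the 108 fragments before, the run took 20.3% ± 0.303 in SUM44, 21.7% ± 0.179 in BT483 and 29.7% ± 0.391 in GM06990. From the 38 after, it took 22.3% ± 0.117, 23.6% ± 0.396 and 41.9% ± 0.809 in the same lines (SD, n = 2 each).

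On the centromeric side a run of 23 windows (chr8:126750001-127900000) was higher in the breast lines. It took 20.0% and 20.1% of the near cis contacts of the 46 fragments in SUM44, 15.4% and 16.1% in BT483, and 7.04% and 6.56% in GM06990. Its median log2 change relative to GM06990 was 1.39 in SUM44 and 1.18 in BT483, and 0 of its windows differed between the breast lines by edgeR. The breast replicates all lay above both GM06990 replicates in 45 of the 46 fragments, and in 56.6% of the captured fragments of the locus. From the 108 fragments before, which lie nearer to it, the run took 22.3% ± 0.0972 in SUM44, 18.2% ± 0.318 in BT483 and 17.6% ± 0.859 in GM06990. From the 38 after it took 17.5% ± 0.0750, 14.1% ± 1.24 and 7.52% ± 0.196 in the same lines (SD, n = 2 each).

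Beyond PVT1 a run of 9 windows (chr8:129900001-130350000) was higher in the breast lines. It took 8.26% and 8.67% of the near cis contacts in SUM44, 6.58% and 6.45% in BT483, and 2.61% and 2.35% in GM06990. Its median log2 change relative to GM06990 was 1.26 in SUM44 and 0.88 in BT483. The breast replicates all lay above both GM06990 replicates in 45 of the 46 fragments, and in 55% of the captured fragments of the locus. The same run took 7.62% ± 0.0723 in SUM44, 6.96% ± 0.342 in BT483 and 6.31% ± 0.662 in GM06990 from the fragments before, and 8.87% ± 0.0292, 6.20% ± 0.238 and 3.10% ± 0.212 from those after (SD, n = 2 each). The window median from the fragments before was 0.09 in SUM44 and -0.01 in BT483 relative to GM06990, against 1.45 and 0.98 from those after.

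A pair of shorter runs far on the centromeric side, 6 windows at chr8:125450001-125750000 and 7 at chr8:126100001-126450000, were lower in the breast lines. The nearer one took 1.83% and 1.71% of the near cis contacts in SUM44, 2.09% and 2.53% in BT483, and 2.60% and 3.06% in GM06990. The farther one took 1.25% and 1.36% in SUM44, 1.5% and 1.88% in BT483, and 1.77% and 2.19% in GM06990. Fewer fragments were apart here than in the other runs: all breast replicates lay below both GM06990 replicates in 17 of the 46 fragments in the nearer run and in 14 in the farther one, where 12.2% and 12.7% of the captured fragments of the locus did so. The replicates of BT483 and GM06990 overlapped in the farther run and adjoined in the nearer one on this scale. Scaled to trans contacts, the median of both runs turned to higher in SUM44 relative to GM06990, at 0.33 in the nearer and 0.56 in the farther. From the fragments before, 4 windows of the nearer run were higher in BT483 and 2 in SUM44 relative to GM06990, and 0 were lower. In the farther run 0 were called from them in either line. From the fragments after, 5 windows of the nearer run and 3 of the farther were lower in SUM44, and 0 and 1 in BT483.

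The windows with the largest rise all lay in the centromeric run. The window chr8:127200001-127250000 had 954 and 825 contacts in SUM44, 143 and 689 in BT483, and 69 and 69 in GM06990. It stood at 0.807 and 0.780 times the distance background in SUM44, 0.652 and 0.597 in BT483, and 0.174 and 0.207 in GM06990. Its log2 change relative to GM06990 was 2.06 ± 0.16 in SUM44 (SE, edgeR adjusted p = 1.59e-06) and 1.70 ± 0.17 in BT483 (SE, edgeR adjusted p = 2.92e-05). The windows from 127150001 and 127250001 beside it rose by 2.03 and 1.94 in SUM44 and by 1.81 and 1.64 in BT483. All stood below the background in every line, and furthest below it in GM06990.

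The largest falls lay in the telomeric run. The window chr8:128800001-128850000 had 621 and 529 contacts in SUM44, 167 and 974 in BT483, and 818 and 1086 in GM06990. It stood at 0.736 and 0.693 times the background in SUM44, 0.979 and 1.27 in BT483, and 2.44 and 3.81 in GM06990. Its log2 change relative to GM06990 was -2.13 ± 0.19 in SUM44 and -1.45 ± 0.19 in BT483 (SE), and it was also lower in SUM44 than in BT483, with a change of -0.68 ± 0.19 (SE, edgeR adjusted p = 0.0470). The window from 129250001 changed by -2.09 in SUM44 and -1.44 in BT483, that from 129200001 by -1.98 in SUM44, and that from 129050001 by -1.42 in BT483. The GM06990 replicates stood above 2 times the background in all 4 windows, and no breast replicate did.

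Between the breast lines the window with the largest rise in SUM44 was chr8:131850001-131900000, with 254 and 260 contacts in SUM44 and 38 and 166 in BT483 (log2 change 0.86 ± 0.20, SE, edgeR adjusted p = 0.0191). GM06990 had 26 and 32 contacts there. Next came the adjoining windows from 129750001 and 129800001, with 0.42 ± 0.12 and 0.48 ± 0.13 (SE). The window with the largest fall was chr8:125900001-125950000, with 215 and 193 contacts in SUM44, 82 and 423 in BT483, and 79 and 88 in GM06990 (log2 change of SUM44 relative to BT483 -0.91 ± 0.17, SE). Those from 123050001 and 122950001, at the far edge of the targets, changed by -0.91 ± 0.26 and -0.80 ± 0.23 (SE). Calls between the breast lines were the least stable: without either SUM44 replicate there were 0, without the second BT483 replicate 3, without the first BT483 replicate 30, without a GM06990 replicate 8 or 9, and DESeq2 gave 6. Scaled to trans contacts the 3 lowest windows turned to higher, at 0.89, 0.47 and 0.55.

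The distances that place the window put MYC between 128749001 and 128760000, and that place is covered by 3 target fragments. These distances are given only in kb and no gene position was used, so which of the 3 fragments hold MYC was not determined. The first of them, chr8:128745991-128756979, met the 46 fragments 143 and 132 times in SUM44, 75 and 185 times in BT483, and 213 and 297 times in GM06990. This was 1.40 and 1.43 times the distance background in SUM44, 3.55 and 2.02 times in BT483, and 5.06 and 8.26 times in GM06990. The other two fragments stood between 0.873 and 0.997 in SUM44, between 1.01 and 1.27 in BT483, and between 2.65 and 3.94 in GM06990. In each replicate of BT483 and GM06990 the first fragment thus stood above the other two, and in SUM44 it was the only one above the background. The 3 fragments are 10989, 1587 and 5523 bp long, in that order. The background had no term for the length of a target fragment, so the first may stand higher through its length, which was not tested.

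Target fragments were put in 50 kb windows by their midpoint, so those at the place of MYC fell in the window from 128750001. The window from 128700001, directly before it, holds none of their contacts. Both windows gave the same order of lines. From 128700001 to 128750000 the 46 fragments stood at 1.59 and 1.63 times the background in SUM44, 2.09 and 1.91 in BT483, and 2.75 and 3.20 in GM06990. That window changed by -0.89 ± 0.11 in SUM44 and -0.58 ± 0.11 in BT483 relative to GM06990 (SE, edgeR adjusted p of 4.23e-05 and 0.00183). From 128750001 to 128800000 they stood at 0.806 and 0.831 in SUM44, 1.27 and 1.19 in BT483, and 2.48 and 3.47 in GM06990, a change of -1.86 ± 0.15 in SUM44 and -1.27 ± 0.16 in BT483 (SE). This window was also lower in SUM44 than in BT483, with a change of -0.58 ± 0.16 (SE, edgeR adjusted p = 0.0346). Scaled to trans contacts, the window from 128700001 stood 0.20 higher in SUM44 relative to GM06990. Both windows stood higher in SUM44 relative to BT483 on that scale, by 1.63 and 1.35.

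From the 108 fragments before, the window from 128700001 rose in BT483 relative to GM06990 (0.34 ± 0.11, SE, edgeR adjusted p = 0.0383) and had no call in SUM44 (0.11 ± 0.11, SE). From the 38 after, it had no call in either line (0.04 ± 0.12 and 0.02 ± 0.12, SE). The window from 128750001 fell from both neighbouring groups in both lines relative to GM06990, with changes of -0.84 and -0.92 in SUM44 and of -0.49 and -0.73 in BT483. At the window from 128700001 the changes from the 46 fragments were thus of the other sign to those from the fragments before. That window holds no contacts of the target fragments at the place of MYC, and the difference between groups of fragments was not tested.

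Among the 46 fragments the contacts with these 3 targets in GM06990 were highest from the ends of the window. The fragment from 128192178 met them 7 and 8 times in SUM44, 8 and 13 times in BT483, and 20 and 23 times in GM06990, or 1.34 and 1.74, 4.49 and 2.44, and 12.7 and 14.1 times the background. The fragment from 128314311 met them 15 and 13 times in SUM44, 5 and 17 times in BT483, and 41 and 57 times in GM06990, or 1.62 and 1.70, 1.92 and 1.82, and 9.11 and 15.5 times the background. The fragment from 128189518 met them 12 and 18 times in SUM44, 6 and 16 times in BT483, and 23 and 36 times in GM06990. In all 3 the GM06990 replicates stood furthest above their background.

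Single pairs of a captured and a target fragment were then set against a negative binomial background of distance and trans contacts in each line, with a pair called at an adjusted p of at most 0.01 and at least 5 contacts. This uses the same counts that were named with the choice of the window, and pairs are not replicates. Of 582336 pairs of the locus, 3 (0.000515%) were called in SUM44, 12 (0.00206%) in BT483 and 20 (0.00343%) in GM06990. Of the 139518 pairs of the 46 fragments, 0 were called in SUM44, 0 in BT483 and 20 in GM06990, so that every called pair of GM06990 came from the window, and all were telomeric. Before adjustment, p lay below 0.05 for 2713 pairs of the 46 fragments in SUM44, 1623 in BT483 and 2336 in GM06990. Pairs below the minimum of 5 contacts were left out of these numbers, which are thus no share of all pairs tested. The same count was not made over the whole locus. With a Poisson background, 1139 pairs of the locus were called in SUM44, 151 in BT483 and 1288 in GM06990, of which 266, 27 and 927 came from the 46 fragments. Without the first GM06990 replicate 7 pairs were called in that line, and without the second 0.

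The 20 calls came from 6 captured fragments and reached 10 target fragments. The fragment from 128314311 gave 8, that from 128313238 gave 5, those from 128192178, 128189518, 128236032 and 128319326 gave 3, 2, 1 and 1. Of the calls, 13 reached 6 target fragments between 128565428 and 128588131, 250.4 to 379.6 kb away. The highest of these was the pair of the fragment from 128313238 with chr8:128568986-128570345, which had 3 and 4 contacts in SUM44, 0 and 8 in BT483, and 20 and 32 in GM06990. This was 0.726 times the expected count in SUM44, 2.05 times in BT483 and 20.3 times in GM06990.

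The fragment chr8:128745991-128756979 at the place of MYC was called from 3 captured fragments in GM06990. This target is 10989 bp long, and the expected count did not take target length into account. With the fragment from 128314311 it had 5 and 4 contacts in SUM44, 3 and 9 in BT483, and 23 and 33 in GM06990, or 1.59, 2.96 and 20.5 times the expected count. With that from 128192178 it had 3 and 4 contacts in SUM44, 5 and 9 in BT483, and 10 and 12 in GM06990, or 2.13, 5.80 and 20.1 times. With that from 128189518 it had 8 and 8 contacts in SUM44, 6 and 12 in BT483, and 12 and 20 in GM06990, or 2.89, 4.66 and 18.1 times. The exact 95% intervals of the GM06990 ratios, for counting error only, ran from 15.5 to 26.6, from 12.6 to 30.5 and from 12.4 to 25.6.

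The most distant calls joined chr8:130562997-130566850 with the fragments from 128189518 and 128236032, over 2374 and 2326 kb. They rest on few contacts. The first had 4 and 2 contacts in SUM44, 1 and 6 in BT483, and 4 and 8 in GM06990, or 3.36, 5.01 and 27.9 times the expected count, and the second had 3 and 3 in SUM44, 1 and 0 in BT483, and 7 and 8 in GM06990. The remaining calls reached chr8:128801732-128808278 from the fragment at 128192178 and chr8:128637659-128639743 from that at 128314311. Over the 20 pairs called in GM06990, the ratio to the expected count had a median of 1.93 in SUM44, with a range of 0.726 to 3.66, and of 2.03 in BT483, with a range of 0.514 to 5.80.

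Contacts between the 46 fragments themselves come from the separate table of pairs inside the capture. Its own trans counts were not used here, and levels were not compared between lines. Each pair was set against the distance background of its own line. There were 384 pairs whose midpoints lay at least 50 kb apart. Relative to the background they had a median ratio of 0.879 in SUM44, 1.05 in BT483 and 2.08 in GM06990, and a highest ratio of 2.84, 2.22 and 15.2 in the same lines. At least 5 times the background was reached by 0 pairs in SUM44, 0 in BT483 and 44 in GM06990. These counts and medians cover pairs of the 46 fragments only. The other pairs of the locus were not counted beside them, so they do not set the window apart from the locus. The replicate medians of GM06990 were 1.76 and 2.38, those of SUM44 0.905 and 0.897, and those of BT483 1.01 and 1.03.

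In GM06990 the highest pairs joined the ends of the window to each other. The fragment from 128192178 and that from 128313238, 117 kb apart, had 22 and 17 contacts in SUM44, 2 and 5 in BT483, and 41 and 55 in GM06990. This was 0.810 times the background in SUM44, 0.573 in BT483 and 15.2 in GM06990, with an exact 95% counting interval of 12.3 to 18.5 in GM06990. The fragment from 128189518 with that from 128314311, 126 kb apart, had 37 and 41 contacts in SUM44, 1 and 21 in BT483, and 63 and 70 in GM06990, or 1.44, 1.30 and 13.7 times the background. Another high pair reached into the first part of the window: chr8:128226106-128226854 with the fragment from 128313238 reached 0.893 times the background in SUM44, 1.23 in BT483 and 12.7 in GM06990.

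The 4 fragments after the step, from 128312287 to 128319325, took part in most of these pairs. The fragment from 128313238 was in 12 pairs at 5 times the background of its 18, that from 128314311 in 11 of 18, that from 128312287 in 10 of 17 and that from 128313881 in 7 of 18. At the start of the window the fragments from 128192178 and 128189518 were in 6 of 32 and 5 of 34. The fragment from 128311388, directly before the step, was in 2 of 17. In SUM44 the highest pair also included the fragment from 128314311, with chr8:128252151-128256930 at 2.84 times the background in SUM44, 1.10 in BT483 and 7.20 in GM06990. The pairs were ranked by these values, and pairs in the rest of the locus were not counted beside them, so they are given without a test.

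The level of near cis contacts per trans contact was also tested by fragment and side with edgeR. In SUM44 relative to GM06990 it was higher at 39 of the 46 fragments on the centromeric side and at 7 of the 46 on the telomeric side, and lower at 0, where 83.3% and 75.8% of all captured fragments were higher. The median log2 change was 1.82 on the centromeric and 1.03 on the telomeric side of the 46 fragments, against 1.63 and 1.67 over all fragments tested. In SUM44 relative to BT483 it was higher at 42 and 44 of the 46, where 72.9% and 86.3% were, with medians of 1.91 and 1.83 against 1.71 and 1.83 over all. Most captured fragments of all regions moved the same way.

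In BT483 relative to GM06990 edgeR called 0 of the 92 sides, as it did 0% of all captured fragments, with 10 at an unadjusted p under 0.05 and 3 lower by DESeq2. The median log2 change was -0.88 on the telomeric and -0.08 on the centromeric side, against -0.21 and -0.06 over all. With the library-wide shift removed by TMM factors, the split over the 92 sides was 1 higher and 26 lower in SUM44 relative to GM06990, 1 and 45 in BT483 relative to GM06990, and 2 and 1 between the breast lines. Scaled to the near cis total alone it was 0 and 1, 1 and 1, and 0 and 0.

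The largest rises of SUM44 relative to GM06990 were 2.43 ± 0.71 at chr8:128272132-128276015 on the centromeric side and 1.69 ± 0.69 at chr8:128271997-128272131 on the telomeric side (SE, edgeR adjusted p of 0.0319 and 0.0323). The telomeric one turned to -0.034 under the near cis total. Relative to BT483 they were 2.37 ± 0.70 at the fragment from 128325588 on the centromeric side and 2.34 ± 0.70 at that from 128271997 on the telomeric side (SE, edgeR adjusted p of 0.0130 each), which turned to -0.27 and -0.35 under the near cis total. All calls of SUM44 depend on each breast library: without either replicate of SUM44 or of BT483, 0 of the 92 sides were called in both comparisons, and 0 with the replicate number as a block. Without the first GM06990 replicate, 82 sides were called in SUM44 and 7 in BT483 relative to GM06990, and without the second the BT483 count was 32.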

How the data were processed

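Capture Hi-C pairs were counted in 3 cell lines with 2 replicates each. The authors deposited whole-number counts of ligated pairs per captured and target fragment, with the trans count of each captured fragment in each replicate, per the file headers. CASAVA 1.8 and the build GRCh37 (hg19) are named in the labels, per the submitters' processing notes. The aligner was not given in the sources used here. The counts carry no molecular identifiers, so every interval covers counting error only.

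Counts were used without normalisation. The background was a negative binomial regression on a natural cubic spline (4 knots) in log10 distance plus the logarithm of the trans count. It was fitted per replicate and region for windows and profiles, and per line for pair calls. It had no term for the length of a captured or a target fragment. Levels were tested with edgeR 4.0.16 (quasi-likelihood F test, Benjamini-Hochberg over all features of all regions, threshold 0.05, at least 20 contacts in at least 2 columns) with the trans count as offset. The side balance had a coefficient per replicate, and 50 kb windows had the background as offset. A standard error is the log2 change divided by the square root of F. DESeq2 1.42.0 was an alternative. Other alternatives changed the scaling, the count filter, the window size, the block, the replicates, and for pairs the covariates, distribution and threshold. The main tests between lines and the pair calls were tried on simulated data. Scripts ran in Python 3.11.15 and R 4.3.3.

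The members, lists and rules were chosen with earlier results of these data known. Named were, per side, the 3 highest and 3 lowest fragments over the lines, the window's edges, per comparison the 3 largest rises and 3 largest falls among calls, the place of MYC, and the top called pairs. Other fragments and the runs of windows were picked after their values were seen. No sequence and no gene position is given, and gene order is from a RefSeq table of GRCh38.p14. The tables binned at lower resolution were not used here.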

Additional observations from a re-analysis of the deposited data

How the results depend on the processing

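With TMM factors added to trans contacts, 27, 46 and 3 of the 92 sides passed the test in SUM44 relative to GM06990, BT483 relative to GM06990 and SUM44 relative to BT483. With the near cis total they numbered 1, 2 and 0, and by DESeq2 3 in BT483 relative to GM06990. With the replicate number as a block, 0 sides passed in SUM44 relative to either line. The numbers do not pair the samples: the replicate difference correlated across features by -0.08 between SUM44 and BT483, -0.0042 between SUM44 and GM06990 and -0.20 between BT483 and GM06990. Leaving out 1 replicate gave 0 to 82, 0 to 32 and 0 to 92 sides, 13 to 44, 16 to 44 and 0 to 4 fragments for the balance, and 95 to 136, 63 to 98 and 0 to 30 windows. Windows of 100 kb gave 71 and 62 calls in SUM44 and BT483 relative to GM06990, out of fewer windows. Scaling windows to trans contacts gave 0 in BT483 relative to GM06990 and 171 in SUM44 relative to BT483. The near cis total gave 33 and DESeq2 6 in that comparison. With a Poisson background the called pairs of the 46 fragments numbered 266 (SUM44), 27 (BT483) and 927 (GM06990), out of 1139, 151 and 1288 called over the locus. In GM06990, distance alone gave 9, a threshold of 0.001 gave 5, and leaving out a replicate 7 or 0.

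Values that turned direction did so under another scaling. Under the near cis total, SUM44 relative to BT483 stood at -0.27 (128325588) and -0.030 (128263616) on the centromeric side and at -0.35 (128271997), -0.46 (128325588) and -0.14 (128272132) on the telomeric side, and SUM44 relative to GM06990 at -0.034 (128271997, telomeric). Under TMM factors, SUM44 relative to GM06990 stood at -0.040 (128272132) and -0.18 (128282581) on the telomeric side. Under trans contacts, SUM44 relative to BT483 stood at 0.89 (125900001), 0.47 (123050001), 0.55 (122950001), 1.63 (128700001) and 1.35 (128750001), and SUM44 relative to GM06990 at 0.20 (128700001), 0.56 (run from 125450001) and 0.33 (run from 126100001). The other named balances kept direction and call in the 9 alternatives run. The cause of the moves was not tested. Depth limits the first BT483 replicate most.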
